A study of Homo sapiens with 16 samples.

Results

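The genes described here are 45 genes of DNA repair and of the checkpoint kinases that act with it, named from 6 pathways and followed on 16 expression arrays of Nalm6, a cell line from a human acute lymphoblastic leukaemia of B-cell precursors. Each gene was read on its brightest probe set, chosen by the mean over all 16 arrays among probe sets annotated to that gene alone. This gave values for 41 of the 45 genes, out of 18132 genes measured in the same way. BRCA2, RBBP8, FANCA and FANCD2 had no such probe set and were not analysed here. The 41 measured genes comprised 8 of 8 base excision genes, 4 of 4 mismatch repair genes, 12 of 14 homologous recombination genes, 7 of 9 Fanconi genes, 6 of 6 end joining genes and 4 of 4 checkpoint kinases.

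The study crossed the cells with a drug, in 4 groups of 4 arrays each. The groups were cells labelled as overexpressing active CASP1 after 24 hours of prednisolone, the same cells untreated, control cells after 24 hours of prednisolone, and control cells untreated. CASP1 is the inflammatory caspase that matures interleukin 1 beta, and prednisolone is a synthetic glucocorticoid used against this leukaemia. The series title asks whether CASP1 cleaves the glucocorticoid receptor and so makes leukaemia cells resistant. All groups come from 1 cell line. The sources used here do not give the prednisolone dose, the promoter that drives CASP1, the number of clones or what the control cells carry. The labels also do not say that the arrays of a group came from separate cultures, so each p-value reflects no more than the scatter of these samples, which may be technical.

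Cells mend DNA by several routes that divide the work by the kind of damage. Base excision repair removes single damaged bases such as uracil or oxidised guanine, and mismatch repair removes copying errors. Homologous recombination repairs breaks from the sister chromatid and so works mainly in S and G2 phase, the Fanconi pathway unhooks strands that are cross-linked, and end joining religates broken ends and also completes the rearrangement of immunoglobulin genes in precursor B cells. The kinases ATM and ATR sense breaks and stalled forks and signal through CHEK2 and CHEK1 to hold the cell cycle. Many recombination, Fanconi and mismatch genes are transcribed with the cell cycle under E2F factors, and glucocorticoids are known to arrest precursor B leukaemia cells in G1.

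The values are log2 signals, in which 1 unit is a 2-fold difference, made by the authors with RMA. Because RMA puts all arrays on 1 scale, fewer cells of a type and less RNA per cell cannot be told apart. CASP1 itself was read as a check of the line labels, on the brightest of its 9 probe sets, and it ran opposite to the label. Whether that probe set lies in the introduced sequence is not given, so the reading cannot decide whether the label is right. CASP1 signal was 5.69 ± 0.25 in untreated cells labelled CASP1 and 7.75 ± 0.15 in untreated control cells (SD, n = 4 each), a difference of -2.06 (limma adjusted p = 2.3e-08), and it was also lower on the arrays labelled CASP1 after prednisolone. The lines are named here by their labels, and each direction between them rests on those names. NR3C1, which encodes the glucocorticoid receptor, rose by 0.85 with prednisolone in cells labelled CASP1 and by 1.24 in control cells (limma adjusted p = 1.7e-05 and 7.3e-08). The 12 measured markers of B-cell precursors had means of 6.69 to 12.75, with VPREB1, a part of the pre-B cell receptor, the highest. The 14 measured markers of T, myeloid, erythroid and stromal cells had means of 2.7 to 5.21, all under the median gene at 5.48. The array numbered 1 in each group differed from the other 3 for several genes, so the counts of called genes are also given without those 4 arrays. The median over the B-cell precursor markers was low on 2 of them, at 10.35 in treated cells labelled CASP1 (11.16 to 11.27 on the other 3) and at 10.71 in untreated control cells (11.21 to 11.3 on the other 3), and its part in the results was not tested.

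Most of the repair genes, each on its brightest probe set, had means above the median gene at 5.48. Some lay close to it, such as TP53BP1 at 5.58 and FANCC at 5.6. Their means over all arrays ran up to 11.53 for XRCC6, a subunit of the Ku heterodimer that caps broken ends, and 1 of the 41 lay below the median gene, PMS2 at 3.43. PMS2, a mismatch repair gene, has near-identical copies in the genome, so its probes may share signal with them. Beyond this, levels of different genes are not compared here, because probe sets differ in brightness.

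In control cells prednisolone lowered much of this repair set. Of the 41 genes, 23 were lower and 0 higher at a limma adjusted p under 0.05, where 8.43% of all genes were lower and 5.73% higher. The median difference over the 41 genes was -0.38, beside -0.01 over all 18132 genes, and 37 of the 41 differences were below 0. There were 25 lower without the 4 arrays numbered 1 (13.1% of all genes). By pathway, the lower genes were 6 of 7 Fanconi genes, 3 of 4 checkpoint kinases, 7 of 12 recombination genes, 2 of 4 mismatch genes, 3 of 6 end joining genes and 2 of 8 base excision genes.

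**Figure D1:**
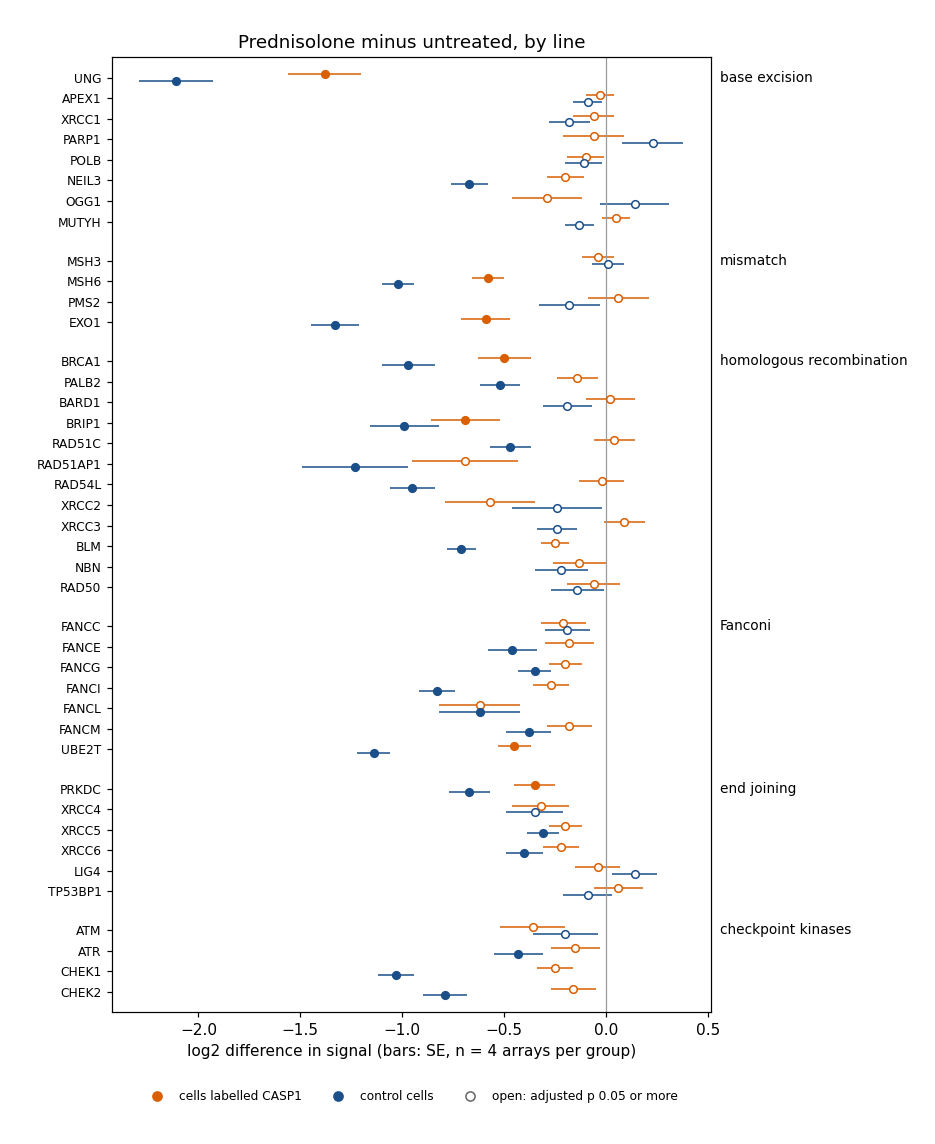
Prednisolone minus untreated for each of the 41 genes, in log2 units with the standard error of the fit, in cells labelled CASP1 (orange) and in control cells (blue), grouped by pathway. Filled points had a limma adjusted p under 0.05, with 7 of them orange and 23 blue, and UNG was lowest at -2.11 in control cells.

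Base excision held the gene with the largest change and the most genes of any pathway that were not called. UNG, the glycosylase that takes uracil out of DNA and that also acts in the diversification of antibody genes, had signals of 8.41, 7.46, 7.33 and 7.28 on the arrays of treated control cells and 9.85, 9.68, 9.71 and 9.67 on those of untreated control cells. The groups did not overlap, although array 1 of the treated cells stood well above the other 3. The difference was -2.11 (SE 0.18), or 4.31-fold lower, with a limma adjusted p of 1.6e-07, and it was -2.33 without the 4 arrays numbered 1. Both UNG probe sets gave nearly the same value, -2.11 and -2.15. NEIL3, a glycosylase for oxidised bases that is made mainly in dividing cells, fell by 0.67 (adjusted p = 4.4e-05).

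The remaining base excision genes did not pass the test in control cells. APEX1, the endonuclease that cuts the strand at the emptied site, had signals of 10.94, 11.0, 10.91 and 10.95 in treated and 11.1, 11.0, 10.98 and 11.07 in untreated control cells. These ranges overlap and the difference was -0.09 (adjusted p = 0.55). PARP1, the break sensor that marks sites with poly(ADP-ribose), was at 0.23 (adjusted p = 0.4), with 1 treated array at 11.5 and the other 3 at 10.66 to 10.77. XRCC1, the scaffold of the pathway, POLB, its gap-filling polymerase, and the oxidised-guanine enzymes OGG1 and MUTYH had differences between -0.18 and 0.14.

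In mismatch repair, the genes that changed were MSH6, which recognises single mispaired bases, and EXO1, the exonuclease that resects the strand. MSH6 had signals of 9.43, 9.52, 9.6 and 9.54 in treated and 10.35, 10.67, 10.57 and 10.58 in untreated control cells. The groups lay far apart for their spread, with a difference of -1.02 (SE 0.08, adjusted p = 7e-08). EXO1 had 7.67, 7.37, 7.35 and 7.28 in treated and 8.58, 8.8, 8.87 and 8.75 in untreated control cells. Again no treated array reached an untreated one, and the fall was 2.52-fold (log2 -1.33, SE 0.12, adjusted p = 2.3e-07). MSH3, which acts in place of MSH6 at larger loops, was at 0.01 (adjusted p = 0.97), with signals of 6.98 to 7.24 in treated and 7.02 to 7.24 in untreated control cells. MSH6 was thus called and MSH3 was not in the same arrays, and the difference between them was not tested.

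Recombination genes fell at several steps of the pathway. BRCA1, which acts in the resection of broken ends, had signals of 8.32, 7.99, 7.87 and 7.93 in treated and 8.9, 9.2, 9.12 and 8.79 in untreated control cells, with no overlap and a difference of -0.97 (SE 0.13, adjusted p = 3.3e-05). Its partner BRIP1, a helicase, fell by 0.99, and PALB2, which bridges BRCA1 to BRCA2, by 0.52 (adjusted p = 0.00052 and 0.0012). BARD1, the obligate partner of BRCA1 in the ubiquitin ligase, was at -0.19 (adjusted p = 0.39), so the ligase subunits were not called alike. Among genes of strand exchange, RAD51AP1, which promotes strand pairing, fell by 1.23 (SE 0.26), RAD54L, a motor that helps strand invasion, by 0.95 (SE 0.11) and RAD51C by 0.47 (SE 0.10). BLM, the helicase that dissolves joined molecules, fell by 0.71 (adjusted p = 2e-06). XRCC2 and XRCC3 also act in recombination, and NBN and RAD50 hold the MRE11 nuclease at breaks. These genes had differences of -0.24 to -0.14 on their brightest probe sets and were not called over all arrays. The 2 probe sets of XRCC2 ran from -0.68 to -0.24, and 1 of them was called lower in a fit over all probe sets. NBN was called lower without the arrays numbered 1, at -0.25 (adjusted p = 0.02), while XRCC2, XRCC3 and RAD50 were not.

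Fanconi genes were the pathway with the largest share of members called in control cells. UBE2T, the ubiquitin-conjugating enzyme that modifies FANCI and FANCD2, had signals of 9.63, 9.65, 9.61 and 9.69 in treated and 10.88, 10.7, 10.73 and 10.83 in untreated control cells. Arrays within each group were close and the groups far apart, with a difference of -1.14 (SE 0.08, 2.2-fold) and the lowest adjusted p of the 41 genes, 1.9e-08. Its substrate FANCI fell by 0.83 (adjusted p = 3.5e-06), and the ligase FANCL by 0.62 (adjusted p = 0.045). Of the core complex, FANCE fell by 0.46 and FANCG by 0.35 (adjusted p = 0.012 and 0.0076). FANCM, the translocase that anchors the complex on DNA, fell by 0.38 (adjusted p = 0.028) and was the only called member whose arrays overlapped between treated and untreated control cells. FANCC, another core subunit, was at -0.19 (adjusted p = 0.36). Its 3 probe sets ran from -0.3 to -0.19, and 1 of them was called lower in a fit over all probe sets. Without the 4 arrays numbered 1 FANCC was called lower, at -0.31 (adjusted p = 0.047). The calls of FANCL and FANCM were lost in 7 and 6 of the 8 fits that left out 1 array of the 2 groups. Averaged over their probe sets, FANCL was at -0.58 and FANCM at -0.18, and neither was called (adjusted p = 0.06 and 0.094).

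The end joining genes called in control cells were those of the DNA-PK subunits. PRKDC, the catalytic subunit, had signals of 9.42, 9.24, 9.22 and 9.22 in treated and 9.81, 10.11, 9.98 and 9.88 in untreated control cells, a non-overlapping difference of -0.67 (SE 0.10, adjusted p = 0.00013). XRCC6 and XRCC5, the Ku subunits, fell by 0.40 and 0.31 (adjusted p = 0.005 and 0.01). The ligation genes LIG4 and XRCC4 were at 0.14 and -0.35 (adjusted p = 0.56 and 0.11), and TP53BP1, which favours end joining over resection, was at -0.09. XRCC4 was not called although its fall was larger than that of the called XRCC5. The 4 XRCC4 probe sets ran from -0.6 to -0.35, and 1 of them was called lower in a fit over all probe sets.

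Among the checkpoint kinases, CHEK1 had the largest change. Its signals were 9.14, 9.13, 9.07 and 9.14 in treated and 9.89, 10.35, 10.16 and 10.18 in untreated control cells. All treated arrays lay in a narrow band below every untreated one, and the difference was -1.03 (SE 0.09, adjusted p = 2.5e-07), with all 6 CHEK1 probe sets lower by 0.94 to 1.35. CHEK2 fell by 0.79 (SE 0.11, adjusted p = 3.9e-05) and ATR, the upstream kinase of CHEK1, by 0.43 (SE 0.12, adjusted p = 0.016). ATM, the upstream kinase of CHEK2, was at -0.20 (adjusted p = 0.54), with signals of 8.47 to 8.95 in treated and 8.64 to 9.18 in untreated control cells. The ATR call was lost in 2 of the 8 fits without 1 array.

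**Figure D2:**
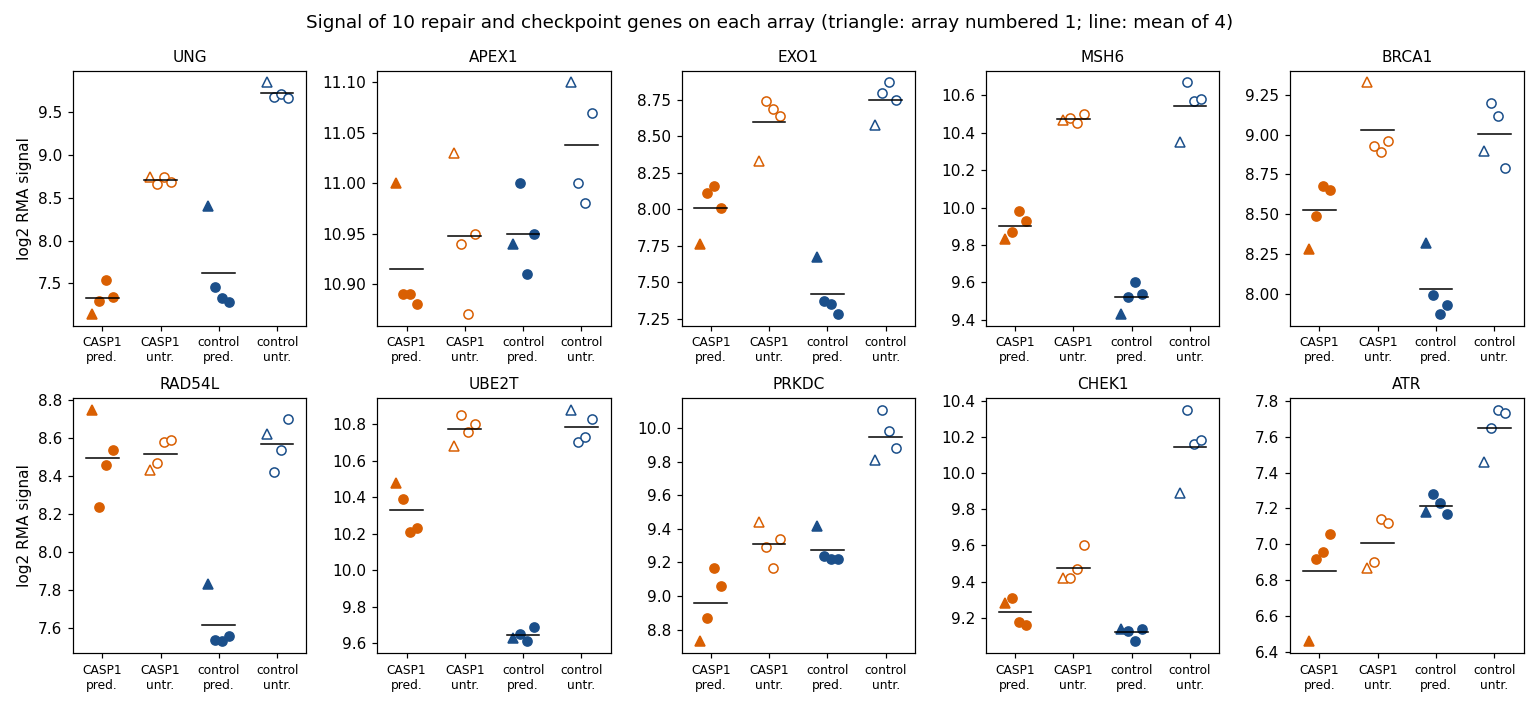
Log2 signal on every array for 10 of the repair and checkpoint genes, with cells labelled CASP1 in orange left of control cells in blue, filled symbols for prednisolone, open symbols for untreated and triangles for the array numbered 1. UNG, EXO1, MSH6, UBE2T and CHEK1 separate by treatment in control cells, APEX1 does not, and UNG in treated control cells has its array 1 at 8.41 above the other 3.

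In cells labelled CASP1 prednisolone lowered genes of mismatch repair, recombination and 3 further pathways. Of the 41 genes, 7 were lower and 0 higher, where 3.35% of all genes were lower and 2.99% higher, and the median difference was -0.20 beside 0.02 over all genes. The 7 genes were UNG, MSH6, EXO1, BRCA1, BRIP1, UBE2T and PRKDC. All 7 were also lower in control cells, which makes 100% of the 7 and 30.4% of the 23. The same overlap was not counted over all genes, so it cannot be read as particular to the repair genes. There were 10 lower without the 4 arrays numbered 1 (6.15% of all genes). The 2 prednisolone comparisons share no arrays, but they share the residual spread of each gene in the fit.

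UNG remained the gene with the largest difference in cells labelled CASP1. Its signals were 7.14, 7.29, 7.54 and 7.34 with prednisolone and 8.74, 8.66, 8.74 and 8.69 untreated, without overlap, and the difference was -1.38 (SE 0.18, 2.6-fold, adjusted p = 6.1e-05). MSH6 had 9.83, 9.87, 9.98 and 9.93 treated and 10.47, 10.48, 10.45 and 10.5 untreated, a difference of -0.58 (SE 0.08, adjusted p = 0.00013). EXO1 had 7.76, 8.11, 8.16 and 8.01 treated and 8.33, 8.74, 8.69 and 8.64 untreated, a difference of -0.59 (adjusted p = 0.0036). Each of these pairs of groups was apart on all arrays. UBE2T fell by 0.45 (adjusted p = 0.0017), BRIP1 by 0.69, BRCA1 by 0.50 and PRKDC by 0.35 (adjusted p = 0.021, 0.025 and 0.048).

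Those last 3 calls were less firm than the others. BRCA1 was at -0.32 (adjusted p = 0.052) and PRKDC at -0.23 (adjusted p = 0.11) without the 4 arrays numbered 1. The value of BRIP1 was -0.46 (adjusted p = 0.02) without array 1 of the treated cells, where BRIP1 stood at 5.12 against 5.96 to 6.19 on the other 3. RAD51AP1 and FANCL stood apart on the same array. RAD51AP1 was 8.25 on array 1 of the treated cells labelled CASP1 and 9.79 to 9.92 on the other 3, so that its difference was -0.69 and not called (adjusted p = 0.13), but -0.34 and called without the arrays numbered 1 (adjusted p = 0.0081). FANCL was 6.77 on that array and 7.98 to 8.0 on the others, with -0.62 (adjusted p = 0.075) over all arrays and -0.36 (adjusted p = 0.0046) without number 1.

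Some genes responded differently in the 2 lines. The interaction, taken as the response of cells labelled CASP1 less the response of control cells, was above 0 at an adjusted p under 0.05 for 6 genes and below 0 for 0, where 0.524% of all genes were above and 0.364% below. It was above 0, called or not, for 33 of the 41 genes and for 10412 of all 18132, and its median was 0.22 over the 41 genes and 0.03 over all genes. The 6 genes were RAD54L, CHEK1, EXO1, UBE2T, FANCI and BLM. In cells labelled CASP1, EXO1 and UBE2T fell less than in control cells and the other 4 did not pass the test over all arrays, while in control cells all 6 fell. Without the 4 arrays numbered 1, CHEK1 and BLM were called lower in cells labelled CASP1, at -0.28 and -0.29 (adjusted p = 0.033 and 0.014).

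RAD54L had the largest interaction over all arrays. In cells labelled CASP1 it had signals of 8.75, 8.24, 8.46 and 8.54 with prednisolone and 8.43, 8.47, 8.58 and 8.59 untreated, which overlap, whereas in control cells it had 7.83, 7.54, 7.53 and 7.56 with prednisolone and 8.62, 8.42, 8.54 and 8.7 untreated. The responses were -0.02 (SE 0.11) in cells labelled CASP1 and -0.95 (SE 0.11) in control cells, an interaction of 0.93 (SE 0.15, adjusted p = 0.0051). CHEK1 responded by -0.25 in cells labelled CASP1, with 9.28, 9.31, 9.18 and 9.16 treated and 9.42, 9.42, 9.47 and 9.6 untreated, and by -1.03 in control cells. Its interaction was 0.78 (SE 0.13, adjusted p = 0.0052), and its untreated level was already lower in cells labelled CASP1, as given with the comparison of the untreated lines. These values are from the brightest of its 6 probe sets and lie at 1 end of their range. The 6 responses in cells labelled CASP1 ran from -0.61 to -0.25, with 3 called lower in a fit over all probe sets. The 6 interactions ran from 0.4 to 0.78. UBE2T responded by -0.45 in cells labelled CASP1, with 10.48, 10.39, 10.21 and 10.23 treated and 10.68, 10.85, 10.76 and 10.8 untreated, and its interaction was 0.69 (SE 0.11, adjusted p = 0.0052).

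The other 3 were closer to the threshold. EXO1 had an interaction of 0.74 (SE 0.16, adjusted p = 0.038), FANCI of 0.57 (SE 0.13, adjusted p = 0.047) and BLM of 0.46 (SE 0.10, adjusted p = 0.045). Their calls were lost in 12, 14 and 14 of the 16 fits that left out 1 array, while those of RAD54L, CHEK1 and UBE2T were kept in all 16. UNG, with the largest response in both lines, had an interaction of 0.73 (SE 0.25) that was not called over all arrays (adjusted p = 0.26). Without the 4 arrays numbered 1 the UNG value was 1.03 (adjusted p = 0.00033), and 15 of the 41 genes were called above 0 (2.72% of all genes), among them BRCA1 at 0.79, MSH6 at 0.50 and RAD51AP1 at 1.02. Arrays numbered 1 thus bear on how many genes differ between the lines in their response.

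Before any drug, cells labelled CASP1 already had lower signals for some of these genes. Of the 41, 9 were lower and 0 higher than in control cells, where 8.2% of all genes were lower and 5.87% higher, and the median was -0.11 beside 0.01 over all genes. The split moved with the scaling, to 3 higher and 8 lower with the arrays quantile normalized again and to 2 higher and 7 lower with the arrays centred on their 75th percentile. The members called were UNG and MUTYH in base excision, RAD51C, NBN and RAD50 in recombination, PRKDC in end joining, and ATR, CHEK1 and CHEK2 among the kinases. Mismatch and Fanconi genes had 0 calls of 4 and 0 of 7.

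**Figure D3:**
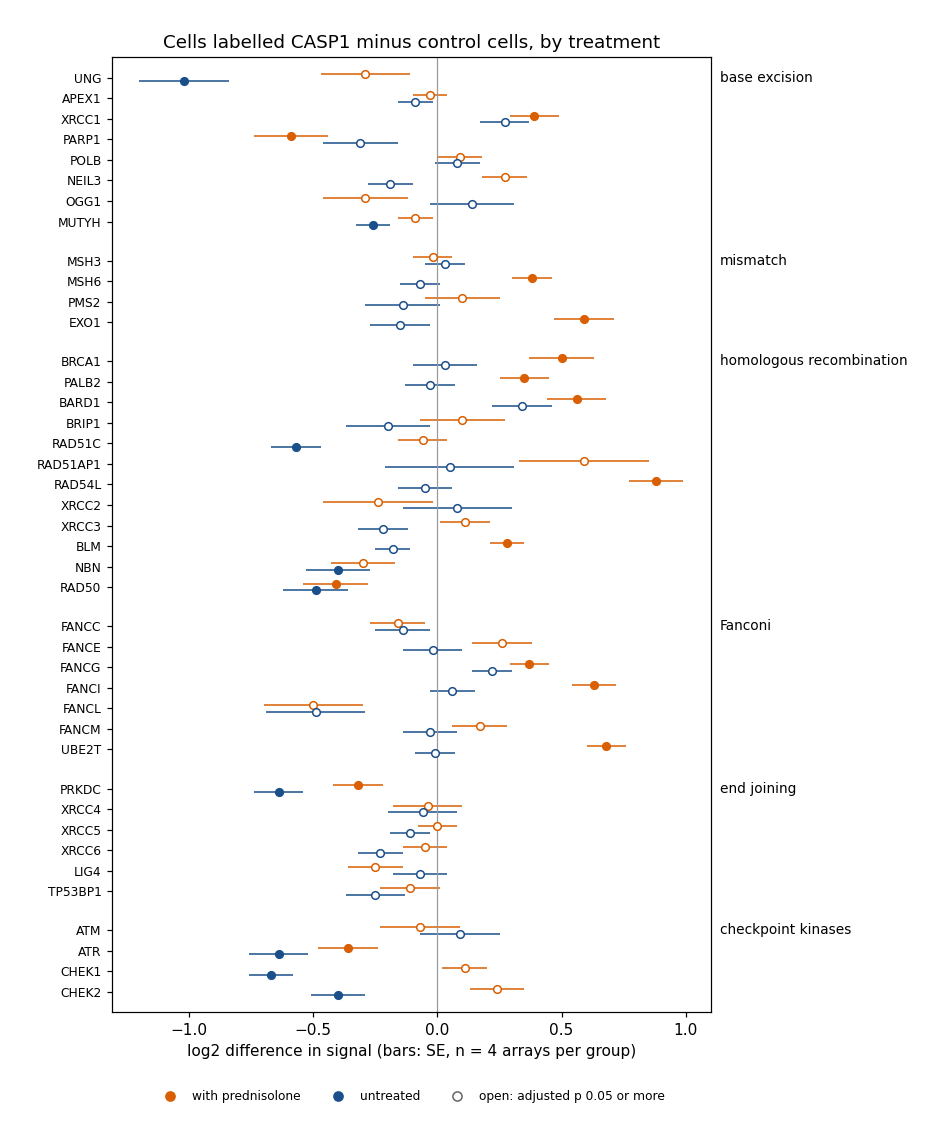
Cells labelled CASP1 minus control cells for each of the 41 genes, in log2 units with the standard error of the fit, without drug and with prednisolone. Filled points had a limma adjusted p under 0.05. RAD54L, UBE2T, FANCI and EXO1 lie between -0.15 and 0.06 without drug and between 0.59 and 0.88 with prednisolone, and UNG lies at -1.02 without drug.

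UNG was the furthest apart without drug, at the untreated signals already given, with a difference of -1.02 (SE 0.18, 2.03-fold, adjusted p = 0.00071). CHEK1 followed at -0.67 (SE 0.09, adjusted p = 6.3e-05), with every untreated array of cells labelled CASP1 at 9.42 to 9.6 and every untreated control array at 9.89 to 10.35. Its 6 probe sets ran from -0.67 to -0.27. ATR had 6.87, 6.9, 7.14 and 7.12 in cells labelled CASP1 and 7.46, 7.65, 7.75 and 7.73 in control cells. These did not overlap, and the difference was -0.64 (SE 0.12, adjusted p = 0.001). PRKDC had 9.44, 9.29, 9.17 and 9.34 in cells labelled CASP1 and 9.81, 10.11, 9.98 and 9.88 in control cells, also apart, at -0.64 (SE 0.10, adjusted p = 0.00033). RAD51C was at -0.57 (adjusted p = 0.00063), although its 4 probe sets ran from -0.62 to 0.04. ATM, the kinase that was not called, was at 0.09 on its brightest probe set (adjusted p = 0.83). Its 5 probe sets ran from 0.09 to 1.64, and 1 of them was called higher in a fit over all probe sets.

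The remaining calls between the untreated lines were nearer the threshold. RAD50 was at -0.49 and CHEK2 at -0.40 (adjusted p = 0.018 each), and both had overlapping arrays. NBN was at -0.40 (adjusted p = 0.047), MUTYH at -0.26 (adjusted p = 0.02). RAD50 lost its call in 4 of the 8 fits without 1 array, CHEK2 in 5 and MUTYH in 2. NBN lost its call in all 8, and averaged over its 5 probe sets, of which 2 had the sign of the call, it was at -0.04 (adjusted p = 0.83). RAD51C averaged in this way was at -0.30 (adjusted p = 0.01). Without the 4 arrays numbered 1, 15 of the 41 genes were called between the untreated lines, 13 lower (12.8% of all genes) and 2 higher (8.53%), the higher ones being BARD1 at 0.32 and XRCC1 at 0.33.

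After prednisolone, genes of recombination, the Fanconi pathway and mismatch repair made up most of the calls between the lines. Of the 41 genes, 11 were higher and 4 lower in cells labelled CASP1 than in control cells, where 7.88% of all genes were higher and 8.52% lower, and the median was 0.09 beside 0.04 over all genes. With the arrays centred on their 75th percentile, 12 were higher and 2 lower. Without the 4 arrays numbered 1, 14 were higher (11.6% of all genes) and 4 lower (10.8%), with NEIL3 (0.36), BRIP1 (0.36) and RAD51AP1 newly called higher and FANCL (-0.21) newly called lower, while PRKDC was no longer called. RAD51AP1 was then at 1.02 (adjusted p = 6.2e-07), against 0.59 (adjusted p = 0.14) over all arrays. This comparison shares its arrays with the prednisolone comparisons above and repeats part of them. The 11 higher genes were XRCC1 in base excision, MSH6 and EXO1 in mismatch repair, BRCA1, BARD1, PALB2, RAD54L and BLM in recombination, and FANCG, FANCI and UBE2T in the Fanconi pathway. The 4 lower genes were PARP1, RAD50, PRKDC and ATR.

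RAD54L was 1.84-fold higher in treated cells labelled CASP1 than in treated control cells (log2 0.88, SE 0.11, adjusted p = 2.1e-05), and UBE2T 1.6-fold higher (log2 0.68, SE 0.08, adjusted p = 1.6e-05). On the array values given above, neither gene overlapped between the treated lines. FANCI was at 0.63, EXO1 at 0.59, BARD1 at 0.56 and BRCA1 at 0.50 (adjusted p = 0.00012, 0.0016, 0.0038 and 0.013), and BRCA1 overlapped between the lines through its arrays numbered 1. BARD1, which was not called for prednisolone in either line, had signals of 9.53, 9.66, 9.41 and 9.43 in treated cells labelled CASP1 and 8.63, 9.03, 9.14 and 9.02 in treated control cells. PARP1 was at -0.59 (SE 0.15, adjusted p = 0.0092). Its signals were 10.44, 10.15, 10.39 and 10.29 in treated cells labelled CASP1 and 11.5, 10.77, 10.66 and 10.7 in treated control cells, so the lines were apart and 1 control array stood above the rest. Without that array PARP1 was at -0.39 (adjusted p = 0.012), and without the 4 arrays numbered 1 PARP1 was at -0.43 and RAD50 at -0.53. UNG, the furthest apart without drug, was at -0.29 between the treated lines (adjusted p = 0.31).

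Several of these calls depended on how the gene or the fit was taken. PRKDC was at -0.32 over all arrays (adjusted p = 0.04) and at -0.19 without the arrays numbered 1 (adjusted p = 0.14). ATR was at -0.36 (adjusted p = 0.04) and at -0.23 without array 1 of the treated cells labelled CASP1 (adjusted p = 0.11). RAD50 was at -0.41 and lost its call in 6 of the 8 fits without 1 array. XRCC1 was at 0.39 on its brightest probe set (adjusted p = 0.0093) and at 0.18 over the mean of its 3 (adjusted p = 0.12). BRCA1 was at 0.5 on its brightest probe set and at 0.34 over the mean of its 5, where it was not called (adjusted p = 0.05). PALB2 was at 0.35 (adjusted p = 0.023) with overlapping arrays, and lost its call in 4 of the 8 fits without 1 array. ATM was not called, at -0.07 on its brightest probe set, while its 5 probe sets ran from -0.35 to 1.16 and 1 of them was called higher. With only the 8 treated arrays in the fit, 9 genes were called, all higher in cells labelled CASP1, and the 4 lower calls were lost.

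Other genes of the same pathways were read from wider lists of 132 further repair and checkpoint genes, 118 of them measured. In control cells prednisolone lowered 34 of the 118 (28.8%, against 8.43% of all genes) and raised 6 (5.08%, against 5.73%), with a median of -0.18. Among those with the largest changes were FEN1, the flap nuclease of base excision and replication, at -1.18 (adjusted p = 1e-06), RAD54B, a relative of RAD54L, at -1.34 (adjusted p = 1.8e-06), DNA2, a resection nuclease, at -1.0, CDC25A, the phosphatase that CHEK1 restrains, at -1.55 (adjusted p = 6.6e-09), TIPIN, a fork protection factor, at -1.12 and CLSPN, the adaptor between ATR and CHEK1, at -0.93. FAN1, a nuclease for cross-links, rose by 0.90. Nucleotide excision repair, which cuts out bulky damage such as that of ultraviolet light, had 1 of 19 genes lower and 0 higher, and that gene was DDB2, a damage sensor, at -0.99 (adjusted p = 1.3e-05). In the remaining end joining genes 0 of 8 were lower over all arrays and 1 was higher, POLM at 0.33. With the arrays numbered 1 left out, 3 of these 8 were lower and 1 higher. Nucleotide excision then had 2 genes lower and 2 higher. Of the 118 genes, 45 were then lower (38.1%, against 13.1% of all genes) and 9 higher (7.63%, against 8.8%).

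**Figure D4:**
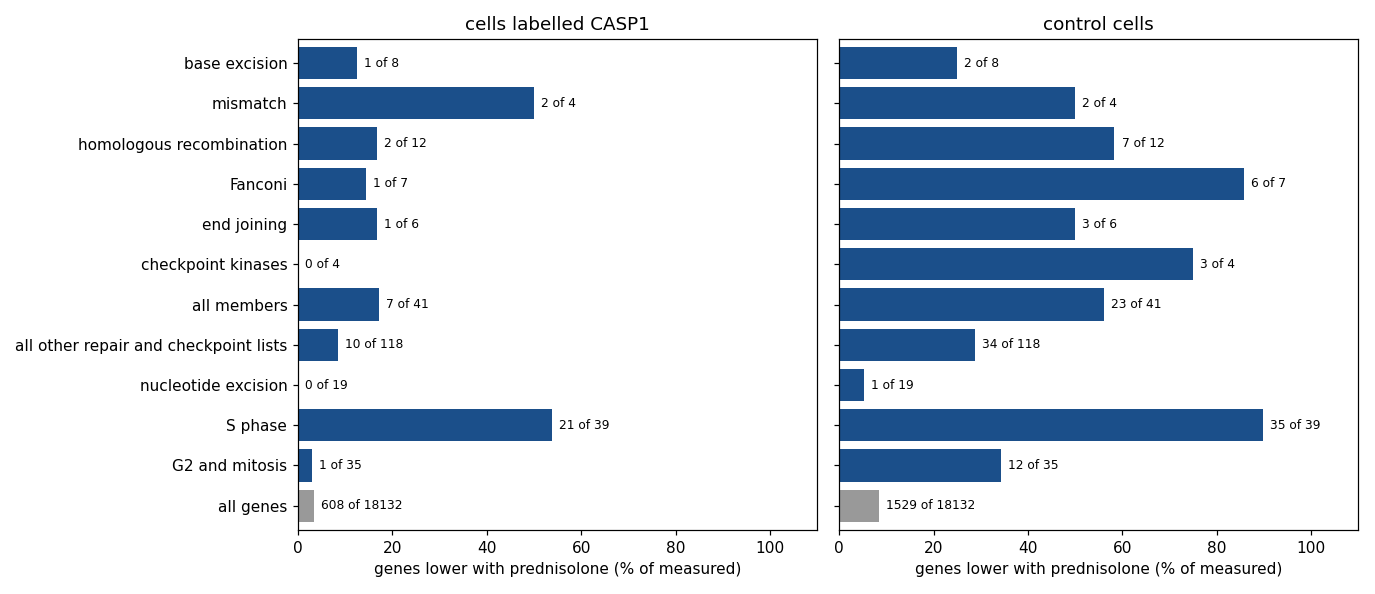
Share of the measured genes of each list that were lower with prednisolone at a limma adjusted p under 0.05, in percent, in cells labelled CASP1 and in control cells, with the number of genes beside each bar. Of the S phase genes 35 of 39 were lower in control cells, against 1 of 19 nucleotide excision genes and 8.43% of all genes.

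In cells labelled CASP1, prednisolone lowered 10 of the 118 (8.47%, against 3.35% of all genes) and raised 5 (4.24%, against 2.99%), with a median of -0.04. Without the 4 arrays numbered 1, 16 were lowered and 12 raised, against 6.15% and 5.77% of all genes. FEN1 was at -0.64 and CDC25A at -0.76 (adjusted p = 0.002 and 7.1e-05), and FAN1 rose by 0.99. The interaction was called above 0 for 10 of the 118 (8.47%, against 0.524% of all genes) and below 0 for 0 (against 0.364%). Without the arrays numbered 1 it was called above 0 for 19 (16.1%, against 2.72%) and below 0 for 2 (1.69%, against 1.29%). Over all arrays RAD54B was at 1.13 (adjusted p = 0.0089) and DDB2 at 1.0 (adjusted p = 0.0081). RAD54B was also 4.87-fold higher in treated cells labelled CASP1 than in treated control cells (log2 2.28, SE 0.14, adjusted p = 9.5e-09), the furthest of the genes on these lists.

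Genes of DNA replication and mitosis were read on the same arrays. Of 39 measured S phase genes, 35 were lower and 1 higher with prednisolone in control cells (median -0.86, 89.7% lower against 8.43% of all genes). In cells labelled CASP1, 21 were lower and 1 higher (median -0.41, 53.8% lower against 3.35%). The higher gene in both lines was POLA2, a subunit of the primase complex, at 1.66 in cells labelled CASP1 and 1.59 in control cells. The median S phase signal per array was 8.49 to 8.96 in treated and 9.08 to 9.12 in untreated cells labelled CASP1, and 8.57 to 8.93 in treated and 9.3 to 9.41 in untreated control cells. Of 35 genes of G2 and mitosis, 1 was lower with prednisolone in cells labelled CASP1 (2.86%, against 3.35% of all genes) and 12 were lower in control cells (34.3%, against 8.43%). Without the arrays numbered 1 these counts were 8 (22.9%, against 6.15% of all genes) and 21 (60.0%, against 13.1%). Between the untreated lines 24 of these 35 were higher in cells labelled CASP1 (median 0.52, 68.6% against 5.87% of all genes), and between the treated lines 30 were (median 0.87, 85.7% against 7.88%), with MKI67, the proliferation marker, at 1.59 and 1.79. The S phase interaction was called above 0 for 8 of 39 genes (20.5%, against 0.524% of all genes). Without the arrays numbered 1 it was called above 0 for 25 (64.1%, against 2.72%). The part of cell cycle distribution in the values of the repair genes was not tested.

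The promoters of the 4 genes with the lowest adjusted p for prednisolone in control cells are shown. They are RefSeq sequences of GRCh38.p14, each from 250 bases before to 50 after the annotated start, 5′ to 3′ on the strand of the gene. The capitals mark matches on either strand to the E2F-type words TTGGCGC or TTCGCGC or TTCCCGC, to CCAAT, the core of the NF-Y site, or to TTTGAA, the CHR element of cell cycle genes. UBE2T lies on the minus strand at chr1:202341887-202342186, MSH6 on the plus strand at chr2:47782895-47783194, UNG on the plus strand at chr12:109097347-109097646 and EXO1 on the plus strand at chr1:241847954-241848253.
UBE2T: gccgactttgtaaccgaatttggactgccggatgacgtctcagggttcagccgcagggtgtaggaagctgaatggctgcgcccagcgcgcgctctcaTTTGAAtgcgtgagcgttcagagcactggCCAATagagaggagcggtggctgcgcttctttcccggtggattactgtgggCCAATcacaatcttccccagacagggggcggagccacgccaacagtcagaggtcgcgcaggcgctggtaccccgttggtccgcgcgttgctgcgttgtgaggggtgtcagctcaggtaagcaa
MSH6: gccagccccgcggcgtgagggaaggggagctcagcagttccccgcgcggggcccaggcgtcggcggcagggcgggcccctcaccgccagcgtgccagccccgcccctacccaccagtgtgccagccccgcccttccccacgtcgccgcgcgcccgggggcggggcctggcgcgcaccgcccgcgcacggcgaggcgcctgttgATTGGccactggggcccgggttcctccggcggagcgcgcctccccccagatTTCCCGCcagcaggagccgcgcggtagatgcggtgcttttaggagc
UNG: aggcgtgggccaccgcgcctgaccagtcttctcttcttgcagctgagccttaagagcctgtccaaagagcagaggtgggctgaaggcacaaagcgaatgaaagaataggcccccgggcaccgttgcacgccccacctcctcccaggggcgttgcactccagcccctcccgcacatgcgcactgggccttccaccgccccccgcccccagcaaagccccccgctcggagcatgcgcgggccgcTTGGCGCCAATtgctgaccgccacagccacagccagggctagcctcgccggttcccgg
EXO1: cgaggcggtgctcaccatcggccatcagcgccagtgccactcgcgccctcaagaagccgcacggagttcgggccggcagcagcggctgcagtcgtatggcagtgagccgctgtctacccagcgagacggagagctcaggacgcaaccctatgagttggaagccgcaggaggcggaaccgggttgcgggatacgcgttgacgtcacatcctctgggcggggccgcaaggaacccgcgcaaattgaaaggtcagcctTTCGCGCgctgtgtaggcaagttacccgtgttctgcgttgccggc

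These 4 promoters differ in the words they hold. UBE2T has 0 E2F-type words, 2 CCAAT boxes and 1 CHR element, and it had the lowest adjusted p of the 41 genes. MSH6 has 1 E2F-type word 5 bases after the start and 1 CCAAT box on the opposite strand. UNG has 2 E2F-type words on opposite strands that overlap each other, and a CCAAT box that overlaps them, and EXO1 has 1 E2F-type word.

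Promoter sequence was matched for 36 of the 41 genes, and POLB, NBN, FANCI, PRKDC and XRCC5 had no entry in the table used. An E2F-type word was in 19 of the 36 (52.8%), against 11.2% of all 27305 promoters and 15.1% of the 14425 promoters of genes measured here. Among genes lower with prednisolone in control cells it was in 11 of 20, and among the others in 8 of 16. CCAAT was in 22 of the 36 (61.1%), against 35.7% of all promoters and 36.4% of those of measured genes, with 13 of 20 in the lower genes and 9 of 16 in the others. TTTGAA was in 6 of the 36 (16.7%), against 15.4% of all promoters and 12.1% of those of measured genes. The word AGAACA, the core that the glucocorticoid receptor binds, was in 5 of the 36 (13.9%), against 14.9% of all promoters and 11.0% of those of measured genes. It was in 1 of 20 of the lower genes and 4 of 16 of the others. The 1 lower gene was EXO1, with the word on the opposite strand, not marked in the sequence above. These are matches of letters and not binding sites.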

How the data were processed

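Total RNA from 16 samples was hybridised to Affymetrix PrimeView arrays. Per the submitters' processing notes, the authors computed the deposited log2 signals by RMA, and the sources used here name no software version or genome build. The table held 49395 probe sets, of which 44988 named 1 gene, 1832 several and 2473 none, and 102 were controls. Array medians lay between 4.85 and 4.93, and no further normalization was made. The number of arrays limits the precision.

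The brightest probe set naming 1 gene stood for it, which gave 18132 genes. Limma 3.58.1 under R 4.3.3 fitted 4 group means over 16 arrays (12 residual degrees of freedom, median residual SD 0.167), with two-sided moderated tests and Benjamini-Hochberg adjustment over all genes. Every adjusted p is from this fit unless an alternative is named. The fit was checked on simulated data. Any of the 45 genes could be named, and each wider list gave up to 3 called genes with the largest absolute difference. The genes, lists, tests and alternatives were chosen with earlier results of these data known. The alternatives were 2 other normalizations, a filter on the dimmest 30% of genes, the mean of a gene's probe sets, only the groups compared, arrays left out, a batch term, a replicate block and eBayes with trend and robust settings. Replicate numbers are shared between groups, but same-numbered arrays deviated together only for number 1 (correlations of 0.191 to 0.507), so they were not taken as pairs.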

Additional observations from a re-analysis of the deposited data

Results flagged for a closer look

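Of 164 groups of 4 arrays, 19 held an array whose gap to the nearest other array exceeded Dixon's 95% critical share of the group's range, where chance alone gives about 1 in 20 groups, and 13 of the 19 were on arrays numbered 1. In treated cells labelled CASP1, array 1 was low for RAD51AP1 (8.25, others 9.79 to 9.92), FANCL (6.77, others 7.98 to 8.0), ATM (8.19, others 8.83 to 8.95) and OGG1 (5.66, others 6.5 to 6.59) and high for APEX1 (11.0, others 10.88 to 10.89), while array 2 was high for POLB (8.94, others 8.69 to 8.73). In untreated cells labelled CASP1, array 1 was high for BRCA1 (9.33, others 8.89 to 8.96), array 2 low for ATM (8.94, others 9.12 to 9.14) and array 4 high for CHEK2 (7.67, others 7.36 to 7.39).

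In treated control cells, array 1 was high for UNG (8.41, others 7.28 to 7.46), PARP1 (11.5, others 10.66 to 10.77), RAD54L (7.83, others 7.53 to 7.56) and PRKDC (9.42, others 9.22 to 9.24) and low for XRCC4 (7.01, others 7.23 to 7.26) and ATM (8.47, others 8.87 to 8.95). There array 3 was high for XRCC2 (6.85, others 6.1 to 6.22) and low for CHEK1 (9.07, others 9.13 to 9.14). In untreated control cells, array 1 was high for XRCC2 (7.16, others 6.35 to 6.41) and array 2 for XRCC6 (11.89, others 11.76 to 11.78).

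The prednisolone response of 6 genes differed between cells labelled CASP1 and control cells by the test of the difference itself, which was 0.93 for RAD54L, 0.78 for CHEK1, 0.74 for EXO1, 0.69 for UBE2T, 0.57 for FANCI and 0.46 for BLM.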

How the results depend on the processing

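No difference of the 41 genes that was called over all arrays or under an alternative had the opposite sign in the other, and differences called in neither were not judged by their sign. For prednisolone in control cells, 23 genes were called, 20 to 24 with 1 array left out and 22 to 25 under the other alternatives, and 20 of the 23 calls were kept in every fit without 1 array. In cells labelled CASP1, 7 genes were called, 5 to 7 with 1 array left out, 11 with all probe sets of a gene averaged, 11 with a batch term for the 4 arrays numbered 1, 10 without those arrays and 4 with only the groups compared. Between the untreated lines, 9 were called, 5 to 8 with 1 array left out (5 without array 4 of the untreated control cells, a loss of MUTYH, NBN, RAD50 and CHEK2) and 15 without the 4 arrays numbered 1. Between the treated lines, 15 were called, 11 to 14 with 1 array left out and 9 with only the groups compared. The interaction had 6 calls, 3 to 9 with 1 array left out and 15 without the arrays numbered 1. It could not be fitted with only the groups compared, because it uses all 4 groups. Over all genes the interaction called 161 genes, 727 without the arrays numbered 1 and 392 with the batch term, and prednisolone in cells labelled CASP1 called 1150, 2161 without those arrays, 1793 with the batch term and 688 with only the groups compared. Without those arrays, prednisolone in control cells called 3969 genes (2568 with them), the untreated lines 3876 (2552 with them) and the treated lines 4062 (2974 with them). The counts of the wider lists without those arrays were added after seeing the data.

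With a replicate block, prednisolone in control cells had 23 calls among the 41 genes, with 8 in cells labelled CASP1, 12 between the untreated lines, 17 between the treated lines and 9 for the interaction, and over all genes the interaction called 289. Correlations of same-numbered arrays were 0.191 to 0.507 for number 1 and -0.116 to 0.26 for the other numbers, against -0.351 to 0.3 for arrays of different numbers. The causes of these shifts were not tested.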

Other observations

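Genes that p53 is known to activate were counted in the same way. Of 23 measured p53 targets, prednisolone raised 4 and lowered 0 in cells labelled CASP1 (median 0.14, 17.4% higher against 2.99% of all genes), and raised 5 and lowered 2 in control cells (median 0.10, 21.7% higher against 5.73%). Without the 4 arrays numbered 1 the counts in cells labelled CASP1 were 7 raised and 1 lowered (30.4% and 4.35%, against 5.77% and 6.15% of all genes). In control cells they were 10 raised and 3 lowered (43.5% and 13.0%, against 8.8% and 13.1%). TP53INP1, a regulator of cell death and autophagy, rose by 2.28 in cells labelled CASP1 and by 5.10 in control cells (limma adjusted p = 3.7e-07 and 6.3e-12). CDKN1A, the p21 inhibitor of cyclin-dependent kinases, fell by 1.03 in control cells (adjusted p = 0.011) and was 2.98-fold higher in treated cells labelled CASP1 than in treated control cells (log2 1.58, adjusted p = 0.00044). Between the untreated lines 11 of the 23 were higher and 1 lower in cells labelled CASP1 (median 0.46, 47.8% higher against 5.87% of all genes). Among them FAS, the death receptor, was at 1.10 and ZMAT3, an RNA-binding target of p53, at 0.90. Without the arrays numbered 1, 16 were higher and 2 lower (69.6% and 8.7%, against 8.53% and 12.8% of all genes). The median p53 target signal was high on array 1 of 3 groups, at 9.03 in treated cells labelled CASP1 (others 8.33 to 8.45), 8.75 in untreated cells labelled CASP1 (others 7.99 to 8.17) and 8.35 in untreated control cells (others 7.41 to 7.48). In treated control cells array 1 was the lowest, at 8.12 (others 8.23 to 8.44). Counts without these arrays are given above, and the cause of their deviation was not tested.

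Of the nucleotide excision genes, XPC, the damage sensor that p53 also induces, was higher in cells labelled CASP1 by 0.82 without drug and by 1.02 with prednisolone (adjusted p = 0.0024 and 0.00034). ERCC8, which acts in repair of transcribed strands, was lower there by 0.78 and 0.94. MGMT, which removes alkyl groups from guanine, fell by 0.57 with prednisolone in control cells (adjusted p = 9.1e-05), and its response differed between the lines by 0.58 (adjusted p = 0.022).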
